A study of Mus musculus with 31 samples.

Results

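*Trem2*, *Tyrobp*, *Fcer1g*, *Lyn*, *Syk*, *Btk*, *Blnk*, *Lat2*, *Vav1* and *Card9* were examined as the genes that carry a signal from a microglial surface receptor towards PLCγ2, and, for *Card9*, beyond it. They are 10 of the 55401 genes in the count tables, were taken by gene symbol, and passed the low-count filter in every comparison. The 31 libraries came from 13-month-old mice on the C57BL/6J background. A- and A+ stand for mice without and with the APP/PS1 transgene, a chimeric mouse/human APP with the Swedish mutation and human PS1 without exon 9, driven by the mouse prion protein promoter. Pwt/wt and Pki/ki stand for mice with wild-type PLCγ2 and mice homozygous for the CRISPR/Cas9-made PLCγ2-P522R knock-in (KI). Temporo-occipital cortex was from A-/Pwt/wt (n = 1), A+/Pwt/wt (n = 4) and A+/Pki/ki females (n = 4). CD11b+ microglia of whole brain were from A-/Pwt/wt (n = 7), A+/Pwt/wt (n = 4) and A+/Pki/ki females (n = 4) and from A-/Pwt/wt (WT, n = 3) and A-/Pki/ki males (KI, n = 4).

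TREM2 is a lipid-sensing receptor of microglia with almost no signalling tail of its own, and it signals through the ITAM motif of its partner TYROBP (DAP12). FCER1G is the ITAM-bearing partner of other activating receptors, such as Fc receptors and the C-type lectins of phagocytes. Src family kinases such as LYN phosphorylate the ITAM, SYK docks there, and SYK, BTK and the adaptors BLNK and LAT2 bring PLCγ2 into its active state, while VAV1 links the same complex to the actin cytoskeleton. CARD9 acts downstream of SYK and protein kinase C delta towards NF-κB. In the APP/PS1 model, microglia around plaques are known to depend on TREM2 for the switch to the amyloid-associated state.

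On GRCm38, *Trem2* lies at chr17:48346401-48354147 (plus strand), *Tyrobp* at chr7:30413760-30417585 (plus) and *Fcer1g* at chr1:171229572-171234365 (minus). The kinase genes are *Lyn* at chr4:3678115-3813122 (plus), *Syk* at chr13:52583173-52648792 (plus) and *Btk* at chrX:134542336-134583570 (minus). *Blnk* lies at chr19:40928927-40994535 (minus), *Lat2* at chr5:134600022-134615025 (minus), *Vav1* at chr17:57279100-57328031 (plus) and *Card9* at chr2:26352176-26360918 (minus). Reads over the exons of each gene were counted.

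Promoter sequences of 7 of the 10 genes were at hand from RefSeq, in 8 windows since *Syk* has 2 start sites. *Tyrobp*, *Lyn* and *Lat2* had no entry. The letters GAGGAA, the core at which the myeloid factor PU.1 can bind, were searched on both strands of the 250 bases upstream of each start and overlapped no other motif searched. They were found in 3 of the 8 windows, compared with 23.3% of all 32851 promoters in the table. These 3 windows are shown because they hold the letters, printed as the 100 bases up to the start site on the gene's own strand (GRCm38.p6), with the match on either strand in capitals. They are chr17:48346301-48346400 for *Trem2* (plus strand), chr13:52596782-52596881 for the downstream start of *Syk* (plus strand) and chr17:57279000-57279099 for *Vav1* (plus strand).
Trem2: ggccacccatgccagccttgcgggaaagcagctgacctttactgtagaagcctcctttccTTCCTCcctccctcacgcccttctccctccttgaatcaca
Syk: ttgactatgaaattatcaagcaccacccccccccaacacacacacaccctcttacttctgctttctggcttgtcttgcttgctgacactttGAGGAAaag
Vav1: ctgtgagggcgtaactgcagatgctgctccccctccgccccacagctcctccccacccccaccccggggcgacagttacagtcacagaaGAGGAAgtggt
The match began 40 bases before the start in *Trem2*, 9 bases in *Syk* and 11 bases in *Vav1*. It is a description of these letters and does not show a bound site.

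Libraries held 16.2 to 25.1 M counts in CD11b+ microglia and 25.2 to 43.1 M in cortex. None of the 12 pan-microglia genes was at 0 throughout any group. In CD11b+ libraries their summed level was 15307 to 37507 CPM, the counts relative to the scaled library total. The CD11b+ libraries also held RNA of other cells. The summed level there was 211 to 5359 CPM for 15 neuronal genes and 6957 to 77615 CPM for 10 oligodendrocyte genes. In cortex the oligodendrocyte genes summed to 4014 to 6734 CPM. Mouse number 236 stands on a CD11b+ library of an A-/Pwt/wt female and also on a cortex library of an A+/Pwt/wt female, and both were used as labelled. The batch tags put all males in 1 batch, the A+ females of both genotypes in another and the A-/Pwt/wt females in a batch of their own, so that in CD11b+ microglia of females the transgene and the batch cannot be told apart. The cortex libraries carry no tag. The beads bind CD11b, which other myeloid cells also carry, and in bulk RNA fewer microglia and less RNA per microglia cannot be told apart. Levels are given as CPM after TMM scaling, log2FC and FDR are from edgeR's quasi-likelihood test over all genes tested, and a gene was called at FDR 0.05.

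The first question was how abundant the 10 transcripts are in microglia and in the tissue. Among the 10 genes, *Tyrobp*, *Fcer1g* and *Trem2* were the most abundant. In plain CPM the means in CD11b+ microglia of A+/Pwt/wt mice were 1389 for *Trem2*, 1068 for *Tyrobp* and 506 for *Fcer1g*. Levels were also divided by the union of annotated exons, which can exceed the length of a transcript. This union was 667 bases for *Tyrobp*, 874 for *Fcer1g*, 4946 for *Trem2* and 9362 for *Syk*, so the order between genes depends on it. Per kilobase of this length, the mean in the same group was 1601 CPM per kb for *Tyrobp*, 579 for *Fcer1g* and 281 for *Trem2*. *Lyn* followed at 80.9, *Vav1* at 60.0 and *Card9* at 33.8 CPM per kb. *Lat2* (25.6), *Blnk* (19.1), *Btk* (18.7) and *Syk* (14.0 CPM per kb) were the lowest. The order from *Tyrobp* to *Card9* was the same in cortex of A+/Pwt/wt mice, where *Tyrobp* was at 80.8 and *Syk* at 0.806 CPM per kb.

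All 10 genes were higher in CD11b+ microglia than in cortex of A+/Pwt/wt mice, and all 10 were called, compared with 37.7% of all genes called higher. A further 7447 of the 18541 genes tested were called lower, and with so many genes called the log2FC depend on the scaling. Cell content, brain region and RNA extraction (a kit for the cells, TRIzol for cortex) differ together here and cannot be told apart. The log2FC ranged from 3.74 (SE 0.18) for *Blnk*, an adaptor shared with B cells, to 5.07 (SE 0.18) for *Btk*, a Tec family kinase, with FDR between 2.68e-09 and 1.56e-08. *Plcg2* was in the same range (log2FC 4.65, SE 0.14, FDR 2.56e-09). The median over the 10 genes was 4.60, compared with -0.06 over all genes tested and 4.92 over the 12 pan-microglia genes. The 96 other genes of the pathway were more mixed, since 77 of the 92 tested were called higher and 11 lower. The 3 largest rises among them were in *Lilrb4a*, an inhibitory receptor (log2FC 5.70, SE 0.33, FDR 5.61e-08), *Clec5a*, a TYROBP-coupled lectin (5.28, SE 0.19, FDR 3.27e-09), and *Itgam*, which encodes CD11b, the antigen of the beads (5.22, SE 0.21, FDR 5.38e-09). The 3 largest falls were in *Rasgrp1* (log2FC -4.97, SE 0.20, FDR 4.97e-09), *Itpr1* (-1.48, SE 0.19, FDR 3.68e-05) and *Prkcb* (-1.47, SE 0.12, FDR 8.19e-07). Their products respond to diacylglycerol or inositol trisphosphate downstream of phospholipase C and are also abundant in neurons.

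The next comparison was that of A+/Pwt/wt with A-/Pwt/wt females, which asks what the APP/PS1 transgene changes in CD11b+ microglia. The receptor and its partner had higher means with the transgene, *Tyrobp* without overlap of the groups, and the kinases had equal or lower means. *Tyrobp* was at 925, 1009, 1080.1 and 1258 CPM in the A+/Pwt/wt libraries. In the 7 A-/Pwt/wt libraries it ranged from 318 to 759.7 CPM with a median of 597. The groups did not overlap, the mean being 1068 ± 142 compared with 578 ± 147 CPM (SD, n = 4 and 7). The log2FC was 0.88 (SE 0.21), which was not called (FDR 0.074).

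*Trem2* was at 1091, 1288, 1526 and 1652 CPM in A+/Pwt/wt libraries and between 506 and 1119 CPM (median 879) in A-/Pwt/wt libraries. Only the lowest A+ library lay within the range of the A- libraries. The log2FC was 0.66 (SE 0.21, FDR 0.20). *Fcer1g*, the partner of other receptors, was at 466, 481, 509.7 and 568 CPM compared with 231 to 508 CPM (median 454). Its log2FC was 0.26 (SE 0.20, FDR 0.78), and the ranges overlapped.

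The kinases overlapped throughout. *Lyn*, the Src family kinase, had a log2FC of -0.04 (SE 0.17), and *Btk* of -0.02 (SE 0.17). *Syk* was at 94.8, 133, 143 and 154 CPM compared with 119 to 203 CPM (median 165), with a log2FC of -0.34 (SE 0.20, FDR 0.65). Thus the kinase that docks on the ITAM had a lower mean in the A+ group, within the spread of the libraries.

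Among the adaptors, *Lat2*, a membrane scaffold, was at 51.0, 68.4, 70.4 and 78.3 CPM compared with 25.8 to 62.9 CPM (median 51.1; log2FC 0.46, SE 0.22, FDR 0.52). Since 952 of its 2621 exon bases overlap *Rfc2* on the other strand and reads were counted irrespective of strand, its values are uncertain to that extent. *Blnk* (-0.09, SE 0.20) and *Vav1* (-0.09, SE 0.18) had log2FC near 0. *Card9* was at 57.7, 75.3, 85.6 and 91.7 CPM compared with 46.5 to 125 CPM (median 105; log2FC -0.38, SE 0.24, FDR 0.71). None of the 10 genes was called by edgeR, compared with 1.29% of all genes called in either direction and 1.01% called higher. Unadjusted p was under 0.05 in 2 genes (*Tyrobp* and *Trem2*), compared with 10.1% of all genes, and both were called with DESeq2, compared with 3.67% of all genes. Without the A-/Pwt/wt library of mouse 223, *Tyrobp* was called (log2FC 0.76, FDR 0.018). Of all genes, 243 of 17258 were then called higher and 254 lower, compared with 175 of 17355 and 49 with that library. Groups did not overlap in 1 of the 10 genes (*Tyrobp*), compared with 2.22% of all genes with A+ ranges wholly above. The median log2FC of the 10 genes was -0.03 and that of all genes tested was -0.03.

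A+/Pki/ki libraries gave a like order when compared with the same A-/Pwt/wt libraries, which the 2 comparisons share. *Tyrobp* was at 933, 1059.7, 1301 and 1309 CPM and was called (log2FC 1.03, SE 0.22, FDR 0.040). It was the only one of the 10 genes called, compared with 1.35% of all genes called higher and 1.64% in either direction. Leaving out any 1 of 9 of the 11 libraries ended this call (FDR up to 0.17), while the log2FC stayed between 0.93 and 1.12. The call held without mouse 223 and without mouse 335, and *Trem2* was then called as well (FDR 0.035 and 0.023). Of all genes, 291 of 17317 were called higher and 69 lower without mouse 223. Without mouse 335 they were 706 of 17287 higher and 391 lower, compared with 236 of 17446 and 50 with all libraries.

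*Trem2* was at 1215, 1431, 1770.0 and 1827 CPM, above all A-/Pwt/wt libraries, with a log2FC of 0.87 (SE 0.22, FDR 0.071). Groups were apart in these 2 genes, compared with 2.48% of all genes with A+/Pki/ki ranges wholly above. *Lat2* (log2FC 0.63, SE 0.23, FDR 0.22) and *Fcer1g* (0.46, SE 0.21, FDR 0.32) were next. *Syk* (-0.03, SE 0.21) and *Card9* (-0.10, SE 0.25) were the lowest. In this comparison the 15 neuronal genes were lower in all 15 (median -0.86), the 10 oligodendrocyte and 10 endothelial genes lower in all 10 (medians -0.53 and -0.54) and 11 of the 12 pan-microglia genes higher (median 0.23), with 0 called in these lists. The 10 neutrophil genes were higher in all 10 (median 1.32, 0 called), with summed levels of 46.1 to 1924 CPM in A+/Pki/ki and 93.4 to 692 CPM in A-/Pwt/wt libraries. In A+/Pwt/wt compared with A-/Pwt/wt libraries they were lower in all 10 (median -0.97, 0 called). Their part in the *Tyrobp* level was not tested. The plot of the CPM in each CD11b+ library shows that, in females, the A+ libraries of *Tyrobp* all lie above the A- libraries, and that for *Trem2* 1 A+/Pwt/wt library (1091 CPM) lies below the highest A- library (1119 CPM).

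**Figure D1:**
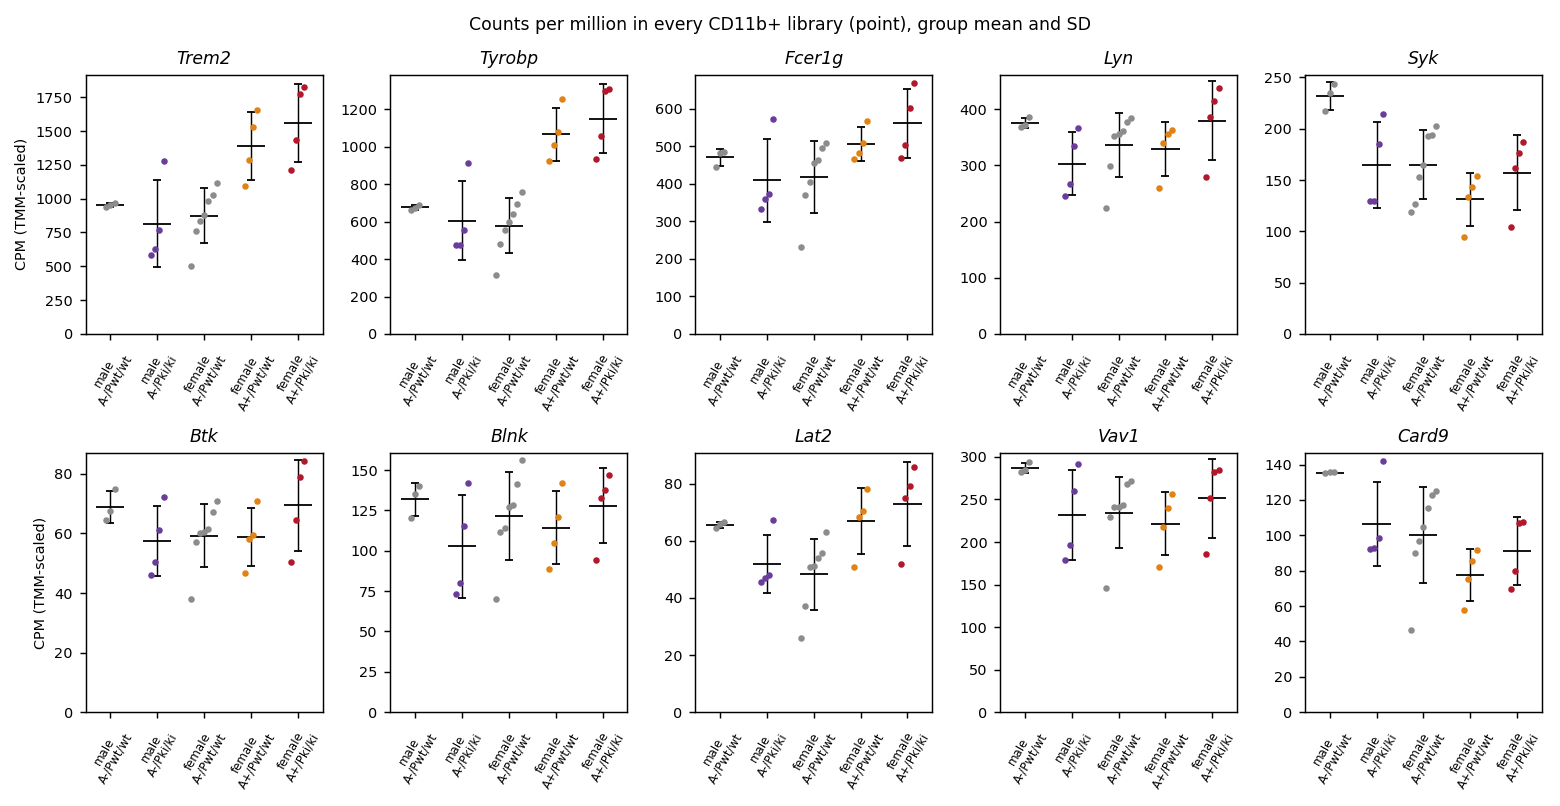
Level of each of the 10 genes in CD11b+ microglia in CPM (vertical axis, from 0), by sex and genotype (horizontal axis). Each point is a library, the horizontal line is the group mean and the bars are ± SD. For *Tyrobp* the A+ libraries (925 to 1309 CPM) lie above all A-/Pwt/wt female libraries (318 to 759.7 CPM), while for *Syk* the groups of females overlap.

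The CD11b+ libraries differed in how much RNA of other cells they held, and the 10 genes moved with it. After the group means were taken off, the log2 CPM of the 10 genes correlated negatively with that of the summed neuronal genes over the 22 CD11b+ libraries, from r = -0.85 for *Syk* (rho = -0.88) to -0.54 for *Tyrobp* (rho = -0.48). Without the 2 libraries farthest in the neuronal level, r was -0.79 for *Syk* and -0.19 for *Tyrobp*. These values share the scaling of the library and are given as a description. The A-/Pwt/wt library of mouse 223 had the highest neuronal level (5359 CPM) and the lowest value of its group for all 10 genes.

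Counts were therefore also scaled to the summed counts of 12 pan-microglia genes, none of which is among the 10. Under this scaling *Tyrobp* was called higher in A+/Pwt/wt (log2FC 0.83, SE 0.13, FDR 0.0079) and in A+/Pki/ki mice (0.77, SE 0.13, FDR 0.015), each compared with A-/Pwt/wt mice. No other gene of the 10 was called in these 2 comparisons, beside 115 of 17355 and 85 of 17446 genes called higher. Per 100 counts of the 12 genes, *Tyrobp* counts were 4.02 ± 0.12 in A+/Pwt/wt (n = 4), 3.85 ± 0.26 in A+/Pki/ki (n = 4) and 2.26 ± 0.23 in A-/Pwt/wt libraries (SD, n = 7). Thus the higher *Tyrobp* level was also present relative to other microglial transcripts.

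The ratio of *Fcer1g* to *Tyrobp* compares both ITAM partners within a library, so that the scaling of the library cancels. Both transcripts are also made by other myeloid cells. *Fcer1g* counts per 100 *Tyrobp* counts were 45.2, 46.1, 47.2 and 52.0 in A+/Pwt/wt microglia and 46.3, 47.5, 50.2 and 51.2 in A+/Pki/ki microglia. In A-/Pwt/wt females they ranged from 66.8 to 77.2 with a median of 72.7. The groups were far apart. The difference was -25.1 for A+/Pwt/wt and -24.0 for A+/Pki/ki compared with A-/Pwt/wt (exact permutation test, two-sided, p = 0.0061 each, adjusted p = 0.015 over 10 tests), and this p is the smallest that 4 and 7 libraries allow. *Tyrobp*, the denominator, was itself apart between these libraries, and the ratio was chosen with earlier results of these data known. The ratio is therefore not independent of the *Tyrobp* difference. Relative to the 12 pan-microglia genes the direction turned, since *Fcer1g* was at 1.92 ± 0.17 in A+/Pwt/wt and 1.88 ± 0.17 in A+/Pki/ki compared with 1.64 ± 0.13 counts per 100 in A-/Pwt/wt libraries (SD, exact permutation test, p = 0.024 and 0.030, adjusted p = 0.076 each). Males without the transgene, from another batch, had 65.8, 70.3 and 72.9 (WT) and 62.4, 66.8, 70.2 and 75.8 (KI), near the values of A-/Pwt/wt females.

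In cortex, where the labels carry no batch tag, the same ratio was 43.8, 47.2, 47.5 and 48.0 in A+/Pwt/wt mice and 84.4 in the 1 A-/Pwt/wt library. It was 38.8, 39.4, 41.1 and 42.9 in A+/Pki/ki mice, all below the A+/Pwt/wt libraries. This difference of -6.09 had the smallest p that 4 and 4 libraries allow (exact permutation test, p = 0.029) and did not pass the adjustment (adjusted p = 0.057). In CD11b+ microglia the same 2 genotypes overlapped (difference 1.17, exact permutation test, p = 0.57, adjusted p = 0.71). In males the difference was -0.81 (exact permutation test, p = 0.80, adjusted p = 0.80), where the smallest p allowed is 0.057.

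*Trem2* differed less relative to its partner. *Trem2* counts per 100 *Tyrobp* counts ranged from 147 to 159 (median 150.5) in A-/Pwt/wt females. They were 118, 128, 131 and 141 in A+/Pwt/wt and 130.3, 135, 136 and 139.6 in A+/Pki/ki microglia. Both A+ groups lay below the A- group, by -22.5 and -16.9 (exact permutation test, p = 0.0061 each, adjusted p = 0.015). With *Tyrobp* as the denominator, this ratio too is not independent of the *Tyrobp* difference. *Trem2* was nevertheless higher with the transgene relative to other microglial transcripts, at 5.21 ± 0.40 in A+/Pwt/wt and 5.21 ± 0.40 in A+/Pki/ki compared with 3.43 ± 0.31 (SD) counts per 100 counts of the 12 pan-microglia genes (exact permutation test, p = 0.0061 each, adjusted p = 0.030). For the KI, the difference in the *Trem2* to *Tyrobp* ratio did not pass the threshold in males (-7.61, exact permutation test, p = 0.17, adjusted p = 0.29), in A+ females (5.69, exact permutation test, p = 0.34, adjusted p = 0.49) or in cortex (1.25, exact permutation test, p = 0.71, adjusted p = 0.79). In cortex, where it was 145 to 159.7 in A+/Pwt/wt and 147 to 158 in A+/Pki/ki mice, the A-/Pwt/wt library was at 158.

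**Figure D2:**
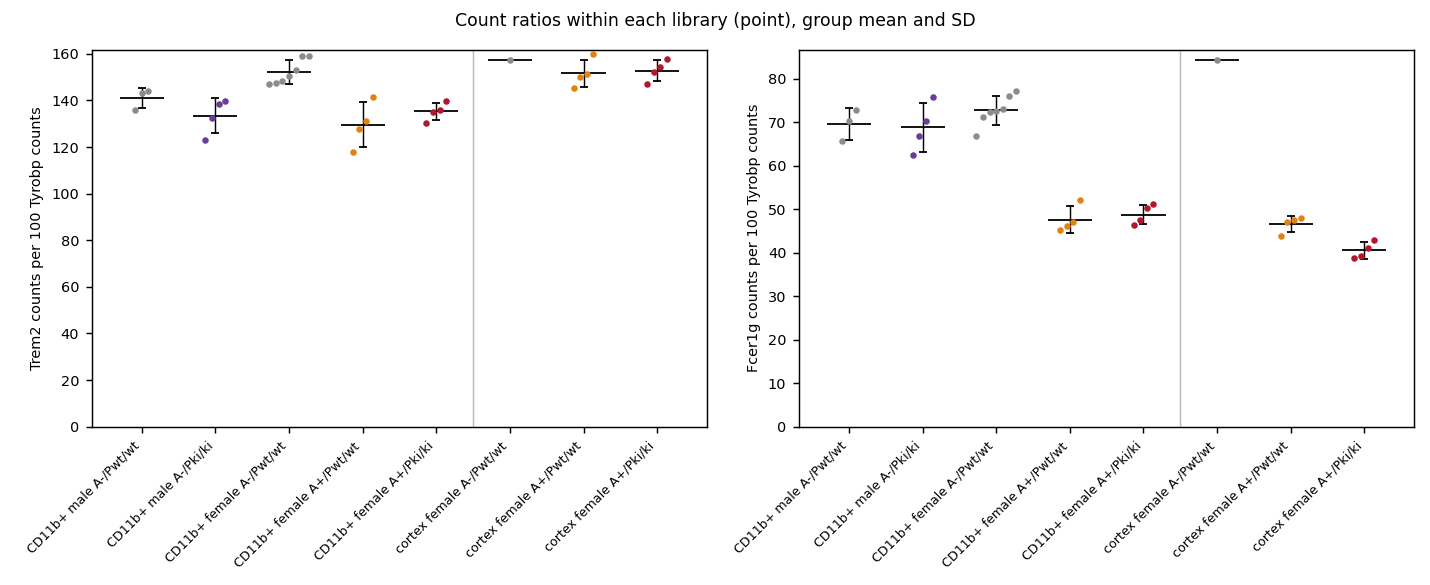
*Trem2* (left) and *Fcer1g* (right) counts per 100 *Tyrobp* counts (vertical axes, from 0) in each library by tissue, sex and genotype, with the group mean and ± SD. The *Fcer1g* ratio is 45.2 to 52.0 in A+ and 62.4 to 77.2 in A- CD11b+ libraries, and in cortex 38.8 to 48.0 in A+ libraries and 84.4 in the A- library.

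Of the 93 other genes of the pathway tested between A+/Pwt/wt and A-/Pwt/wt microglia, 4 were called higher and 1 lower, beside the 1.29% of all genes called in either direction. The 3 largest rises were in *Cd300lf*, an inhibitory lipid receptor (log2FC 4.25, SE 0.55, FDR 0.0018), *Clec7a* (Dectin-1), an activating receptor that signals to SYK and CARD9 (2.58, SE 0.29, FDR 0.00079), and *Treml2* of the TREM family (1.23, SE 0.23, FDR 0.019). *Clec7a* is itself a marker of amyloid-associated microglia. In A+/Pki/ki microglia 5 genes of 94 were called higher and 0 lower, with the same 3 in the lead (log2FC 4.37, SE 0.58, FDR 0.0031; 2.65, SE 0.29, FDR 0.00082; and 1.49, SE 0.25, FDR 0.013). No kinase, phosphatase or gene downstream of PLCγ2 was called in either comparison, with 16 and 17 kinases, 9 phosphatases and other brakes and 18 downstream genes tested. All 10 amyloid-associated microglial genes were called higher in both comparisons, with summed levels of 2097 to 4099 CPM in A+/Pwt/wt and 294 to 631 CPM in A-/Pwt/wt microglia. Border macrophage genes went the other way, with 9 of 9 lower in both comparisons, 3 and 1 of them called, and summed levels of 683 to 797 CPM in A+/Pwt/wt, 701 to 973 CPM in A+/Pki/ki and 823 to 1822 CPM in A-/Pwt/wt microglia. Their part in the levels of the 10 genes was not tested. *Plcg2* was not called (log2FC 0.05, SE 0.17, and 0.23, SE 0.19).

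The comparison of A+/Pki/ki with A+/Pwt/wt mice asks what PLCγ2-P522R changes upstream of itself when amyloid is present. All 10 genes had a higher mean in CD11b+ microglia of A+/Pki/ki mice, by small amounts. The log2FC ranged from 0.11 (SE 0.17) for *Tyrobp* to 0.26 (SE 0.22) for *Syk*, with a median of 0.17 compared with 0.00 over all genes tested. *Syk* was at 104, 162, 176 and 187 CPM in A+/Pki/ki and at 94.8, 133, 143 and 154 CPM in A+/Pwt/wt libraries, with overlap. None of the 10 genes was called by edgeR (FDR 0.85 to 0.87), compared with 0% of all genes, and none by DESeq2, compared with 0.0413%. None had an unadjusted p under 0.05, compared with 3.37% of all genes, and the groups overlapped in all 10, compared with 2.29% of all genes with ranges apart. The 12 pan-microglia genes were higher in all 12 (median log2FC 0.19) and the 15 neuronal genes lower in all 15 (median -0.85), none of them called. The 10 neutrophil genes, which mark cells that also carry CD11b and use *Tyrobp*, *Fcer1g* and *Syk*, were higher in all 10 (median 2.47, 0 called), with summed levels of 46.1 to 1924 CPM compared with 54.9 to 159.8 CPM. Their part in these differences was not tested. Scaled to the pan-microglia genes, the median log2FC of the 10 genes was 0.01, from -0.06 to 0.08. In the 96 other genes, 71 of 92 tested had a higher mean and 0 were called. Without the A+/Pki/ki library of mouse 335, the median log2FC of the 10 genes was 0.32 (0.22 to 0.44). Of the 10 genes 0 were then called by edgeR (FDR 0.15 to 0.36), beside 0 of 16825 genes. Unadjusted edgeR p was then under 0.05 for *Lyn*, *Syk* and *Btk*, beside 4594 of the 16825 genes.

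In cortex the 10 genes differed even less between these genotypes. The log2FC ranged from -0.17 (SE 0.12) for *Fcer1g* to 0.08 (SE 0.09) for *Lyn*, and 6 of 10 were positive. *Fcer1g* was at 18.4, 21.3, 24.0 and 25.0 CPM in A+/Pki/ki and at 20.3, 24.3, 26.3 and 29.3 CPM in A+/Pwt/wt cortex. *Trem2* was at 72.2, 80.8, 88.4 and 92.5 CPM compared with 64.3, 79.6, 81.6 and 101 CPM. None was called by edgeR (FDR 1.00), compared with 0% of all genes, and none by DESeq2, compared with 0.059%. None had an unadjusted p under 0.05, compared with 2.76% of all genes, and no ranges were apart, compared with 1.85%. *Plcg2* had a log2FC of -0.11 (SE 0.10). Of 87 other genes of the pathway tested, 35 had a higher and 52 a lower mean and 0 were called.

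The 1 cortex library of an A-/Pwt/wt mouse had no replicate, so its values are given without a test. *Trem2* was at 15.9, *Tyrobp* at 10.1 and *Fcer1g* at 8.54 CPM there, all below the lowest A+ library (64.3, 42.9 and 18.4 CPM). *Lyn* (8.59), *Syk* (4.32), *Btk* (0.835), *Blnk* (7.35), *Lat2* (0.93) and *Vav1* (3.98 CPM) were also below all 8 A+ libraries. *Card9*, at 3.72 CPM, lay within their range of 3.52 to 5.30 CPM. The summed level of the 12 pan-microglia genes was 568 CPM in this library and 1033 to 1241 CPM in the A+ libraries.

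**Figure D3:**
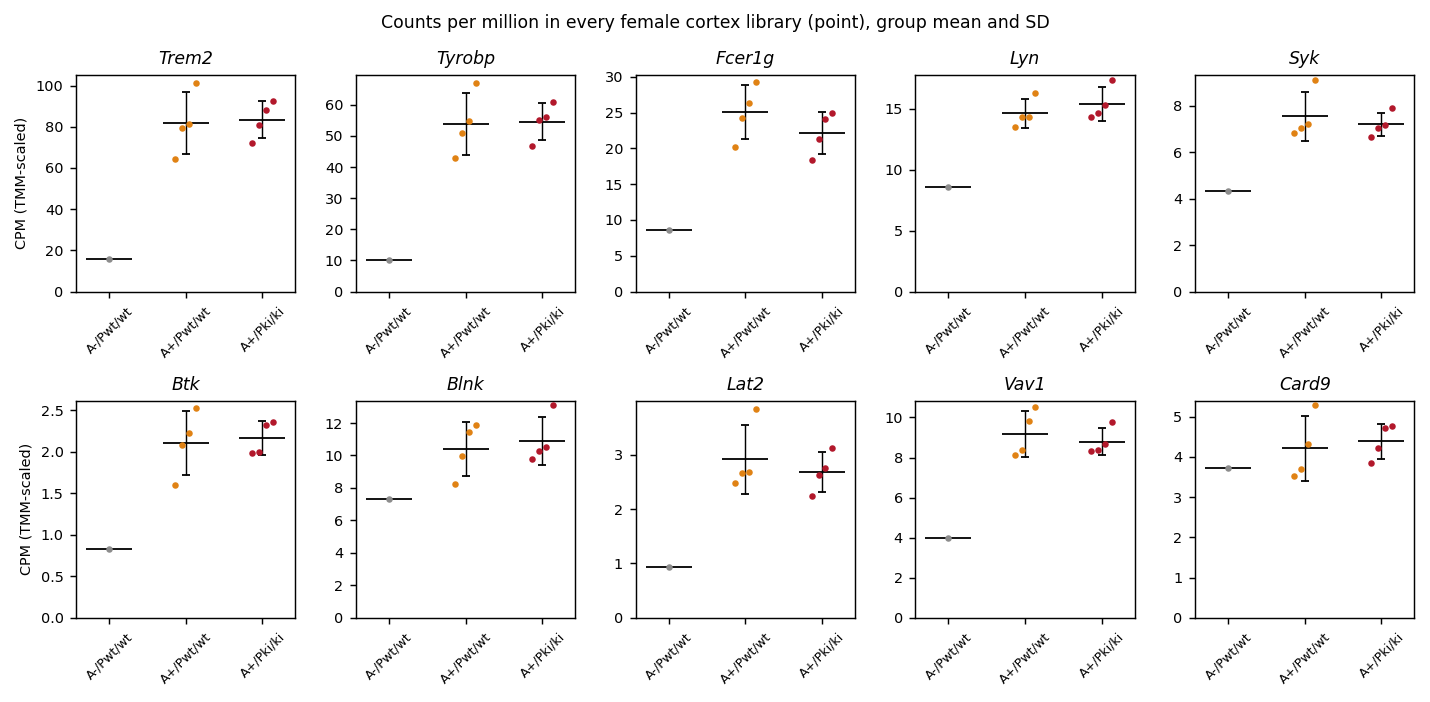
Level of each of the 10 genes in female cortex in CPM (vertical axis, from 0) by genotype, with each library as a point, the group mean and ± SD, and 1 library for A-/Pwt/wt. The A+/Pwt/wt and A+/Pki/ki libraries overlap for each gene, and the A-/Pwt/wt library lies below them for all but *Card9*.

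In males without the transgene, the comparison of KI with WT mice asks what PLCγ2-P522R changes in microglia that do not face amyloid. All 10 genes had a lower mean in KI microglia, and the WT libraries were close together. *Syk* was at 129.7, 129.7, 185 and 214 CPM in KI and at 217, 235 and 244 CPM in WT libraries. The groups did not overlap, with a gap of few CPM between the nearest libraries. The log2FC was -0.53 (SE 0.17), not called by edgeR (FDR 0.064) and called by DESeq2 (adjusted p = 0.033).

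*Lyn* was at 246, 267, 334 and 366 CPM compared with 369, 371 and 386 CPM (log2FC -0.34, SE 0.14, FDR 0.12), again without overlap. *Btk* was at 46.2, 50.5, 61.1 and 72.3 CPM compared with 64.4, 67.6 and 74.9 CPM (-0.30, SE 0.15, FDR 0.19). All 3 kinases thus had lower means in KI microglia, and *Btk* overlapped.

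For the receptor complex, 1 KI library went against the other 3. *Trem2* was at 583, 629 and 770.5 CPM in 3 KI libraries and 1280.0 CPM in the fourth, compared with 941, 953 and 967 CPM in WT libraries (log2FC -0.26, SE 0.25, FDR 0.49). *Tyrobp* was at 474, 475 and 557 CPM and 916 CPM in the same library, compared with 662, 675 and 691 CPM (-0.20, SE 0.22, FDR 0.56). *Fcer1g* was at 333, 359.8, 372 and 572 CPM compared with 444, 482 and 486 CPM (-0.24, SE 0.18, FDR 0.38). The high library was that of mouse 104, which was also the highest of its group for *Lyn*, *Btk*, *Blnk*, *Lat2*, *Vav1* and *Card9*, but not for *Syk*.

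Among the adaptors, *Blnk* was at 73.5, 80.3, 115 and 142 CPM compared with 121, 135 and 140.2 CPM (log2FC -0.40, SE 0.20, FDR 0.20). *Lat2* was at 45.4, 47.1, 47.9 and 67.3 CPM compared with 64.5, 65.9 and 66.4 CPM (-0.37, SE 0.14, FDR 0.090). *Vav1* was at 179, 196, 259.5 and 292 CPM compared with 282, 285 and 294 CPM (-0.35, SE 0.16, FDR 0.16). *Card9* was at 92.4, 92.8, 98.4 and 142 CPM compared with 135, 136 and 136 CPM (-0.38, SE 0.15, FDR 0.11). *Plcg2* itself was at 162, 164, 206 and 207 CPM compared with 229.9, 230.4 and 234 CPM, with a log2FC of -0.36 (SE 0.11, FDR 0.058). It was called by DESeq2 (adjusted p = 0.025) and by edgeR without mouse 104 (FDR 0.014).

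Of the 10 genes 0 were called by edgeR, compared with 16.4% of all genes in either direction, and 1 (*Syk*) by DESeq2, compared with 22.7%. Unadjusted p was under 0.05 in 4 of the 10, compared with 33.3% of all genes. Ranges were apart in 2 (*Syk* and *Lyn*), compared with 12.3% of all genes with KI ranges wholly below. The median log2FC was -0.35, compared with -0.0012 over all genes tested. Without mouse 104, all 10 genes were called lower by edgeR (log2FC -0.42 to -0.59, FDR 0.0017 to 0.032). Of all genes, 33.5% were called in either direction without this library, 2153 of 16242 lower and 3286 higher. Its summed pan-microglia level was 37507 CPM, and the other KI libraries were at 20271 to 27406 CPM.

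The RNA of other cells moved with this comparison. The 15 neuronal genes were called higher in KI microglia in all 15 (summed level 762 to 1704 CPM compared with 237 to 342 CPM), and so were 9 of 10 astrocyte and 7 of 10 oligodendrocyte genes, while the 12 pan-microglia genes had a median log2FC of -0.25 with 1 called lower. Scaled to the pan-microglia genes, the median log2FC of the 10 genes was -0.05 (-0.23 for *Syk* to 0.07 for *Tyrobp*) and 0 were called, and this scaling moved the median of all genes by 0.33 on the log2 scale. The summed CPM of the 10 genes, as a percentage of that of the 12 pan-microglia genes, was 10.5 to 10.8 in WT and 10.2 to 10.9 in KI males.

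**Figure D4:**
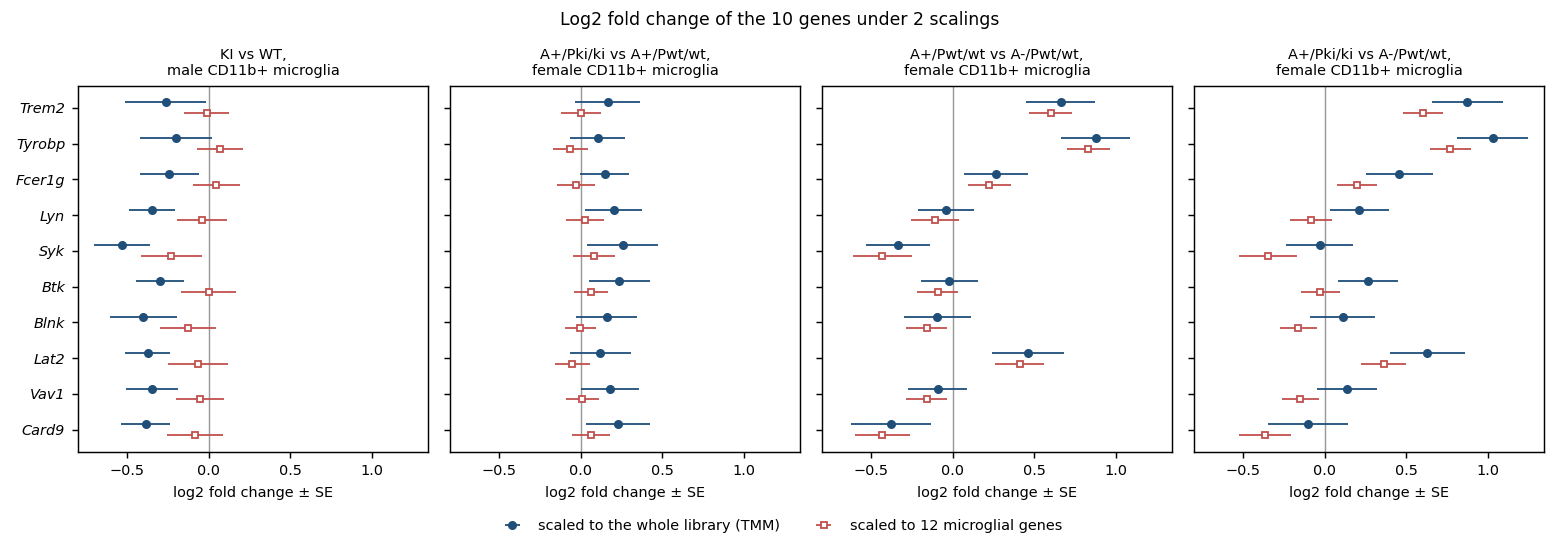
Log2 fold change ± SE (horizontal axis) of the 10 genes (vertical axis) in 4 comparisons of CD11b+ microglia, with TMM scaling (filled circles) and with scaling to 12 pan-microglia genes (open squares). With the latter the KI comparisons lie at -0.23 to 0.08, and *Tyrobp* stays at 0.83 and 0.77 in the comparisons with A-/Pwt/wt mice.

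Of the 91 other genes of the pathway tested in males, 23 were called lower and 4 higher, compared with 5.26% of all genes called lower and 11.1% called higher. The 3 largest falls were in *Lilrb4a* (log2FC -0.88, SE 0.16, FDR 0.0086), the adaptor *Fyb* (-0.74, SE 0.10, FDR 0.0038) and the inhibitory receptor *Cd22* (-0.73, SE 0.14, FDR 0.010). By role, the genes called lower were 4 of 12 inhibitory receptors, 0 of 17 activating receptors, 3 of 14 kinases, 5 of 16 adaptors and exchange factors, 5 of 9 phosphatases and other brakes, and 6 of 18 downstream genes. Differences between these roles were not tested. The 3 largest rises were in *Rasgrp1* (2.05, SE 0.43, FDR 0.014), *Clu*, whose product is an apolipoprotein that TREM2 binds (0.98, SE 0.21, FDR 0.015), and the Src family kinase *Fyn* (0.84, SE 0.18, FDR 0.016). Neurons or astrocytes also express these genes. With the pan-microglia scaling, which shifts all genes upwards in this comparison, 1422 of all genes were called higher and 4 lower in males, compared with 1824 and 861 with TMM.

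The male KI effect and the effect of the KI in A+ females had opposite signs in all 10 genes, and the difference between them was tested. It ranged from -0.27 (SE 0.30) for *Tyrobp* to -0.75 (SE 0.31) for *Syk*, with a median of -0.50 compared with 0.01 over all genes. None of the 10 was called by edgeR (FDR 0.16 to 0.56), compared with 0% of all genes, and none by DESeq2, compared with 6.73%. Unadjusted p was under 0.05 in 2 (*Syk* and *Card9*), compared with 26.5% of all genes. Without the A+/Pki/ki library of mouse 335, 6 of the 10 were called lower (*Lyn*, *Syk*, *Btk*, *Lat2*, *Vav1* and *Card9*, FDR 0.013 to 0.037). Of all genes, 35.4% were called in either direction without this library, 2725 of 17495 lower and 3474 higher. This library had the highest neuronal level of its group (2617 CPM, the others 211 to 653 CPM) and the lowest value for all 10 genes. Sex, batch and transgene all differ between the 2 effects and cannot be told apart. Scaled to the pan-microglia genes, the difference ranged from -0.31 to 0.13 and 0 were called.

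Across the 5 CD11b+ groups, the order of the means differed between genes. *Trem2* and *Tyrobp* had both A+ groups on top, followed by a gap without overlap to WT males, the next group by mean. For *Trem2* the lowest A+/Pwt/wt library (1091 CPM) was below the highest A-/Pwt/wt female (1119 CPM) and KI male libraries (1280 CPM). For *Tyrobp* the lowest A+ library (925 CPM) was above all A- libraries, the highest being a KI male (916 CPM). *Fcer1g* and *Lat2* had the same groups on top, but each group overlapped the next. *Syk* was highest in WT males (232 ± 13.6 CPM, SD, n = 3), above the female A-/Pwt/wt libraries without overlap, and lowest in A+/Pwt/wt females (131 ± 25.7 CPM, n = 4). WT males and A-/Pwt/wt females also differed in batch and in the summed neuronal level (237 to 342 and 449 to 5359 CPM). The part of sex, batch or neuronal content in the *Syk* level was not tested. *Blnk*, *Vav1* and *Card9* were also highest in WT males, and *Lyn* and *Btk* in A+/Pki/ki females, with overlap between all neighbours in these orders.

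Within groups, the 10 genes varied together. Over the 45 pairs, Pearson's r of the log2 CPM with group means taken off had a median of 0.85 over the 22 CD11b+ libraries and ranged from 0.46 (*Fcer1g* and *Syk*) to 0.98 (*Trem2* and *Tyrobp*, rho = 0.98, and 0.97 without the 2 libraries farthest in *Trem2*). *Tyrobp* and *Fcer1g* had r = 0.97, and *Btk* and *Vav1* 0.97. The genes most like *Trem2* among the 11332 genes ranked were *Itgam* (r = 0.97), *Slc35b2* (0.97), *Sft2d1* (0.97), *Hexa* (0.96) and *Dnase2a* (0.96). Most like *Tyrobp* were *Ly86* (0.98), *Npc2* (0.98), *Itgam* (0.97), *Hcls1* (0.97) and *Limd2* (0.97). Most like *Syk* were *Slco2b1* (0.97), *Mlec* (0.96), *Vps35l* (0.96), *Man1c1* (0.96) and *Lipa* (0.96). Over these 15 pairs, *Itgam* standing in 2 of them, rho was 0.92 to 0.98, and r without the 2 libraries farthest in the named gene was 0.93 to 0.97. These libraries share their scaling and their content of other cells, so the values describe libraries and not cells.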

How the data were processed

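Per the labels and the study's methods, RNA was enriched with oligo(dT) and sequenced in pairs. Reads were processed with Trimmomatic 0.39, STAR 2.7.9a and featureCounts on GRCm38. The study's methods give several versions of featureCounts, 2.12.0 among them, without assigning them to libraries. The authors deposited whole-number counts per gene of unique primary alignments, counted irrespective of strand, and variance-stabilized values, which were not used here. Each library is labelled with 1 mouse number. A gene was tested where 3 or more libraries of a comparison held 10 or more counts, with edgeR 4.0.16 (quasi-likelihood, TMM, Benjamini-Hochberg) in R 4.3.3 on the libraries of that comparison, and DESeq2 1.42.0 was an alternative. Count ratios were compared with exact two-sided permutation tests of the means, adjusted over 10 tests. The fits were tested on simulated data. CPM come from 1 TMM scaling per tissue. Exon lengths are unions of exons in a Gencode annotation of GRCm38, and exon overlaps were taken from it too. It is an older release than the one the study used. *Lyn* and *Card9* overlap non-coding genes of the other strand by 248 and 87 exon bases. All 10 genes and *Plcg2* were named in each comparison, together with the 3 largest called rises and falls of the other pathway genes (mean of at least 5 CPM, no overlap) and the 5 genes most like *Trem2*, *Tyrobp* and *Syk*. The genes, lists and tests were chosen with earlier results of these data known. Alternatives were DESeq2 size factors, no low-count filter, DESeq2's Wald test, pan-microglia scaling, all groups of a table, leaving out each library, a log2 ratio and the pan-microglia genes as reference of the ratio.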

Additional observations from a re-analysis of the deposited data

Results flagged for a closer look

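In 6 of 72 groups of 4 to 7 libraries, 1 library stood farther from the others than Dixon's 95% critical value allows, and chance flags about 1 in 20 groups. Among A-/Pwt/wt females, mouse 223 was lowest for *Btk* at 37.9 CPM (the others 57.3 to 70.8 CPM). It was also lowest for *Vav1* at 146 CPM (the others 229 to 272 CPM). This library had the highest neuronal level of the CD11b+ libraries (5359 CPM).

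Among KI males, mouse 104 was highest for *Fcer1g* at 572 CPM (the others 333 to 372 CPM). For *Lat2* it was at 67.3 CPM (the others 45.4 to 47.9 CPM), and for *Card9* at 142 CPM (the others 92.4 to 98.4 CPM). In cortex of A+/Pwt/wt mice, mouse 257 was highest for *Lat2* at 3.85 CPM (the others 2.47 to 2.68 CPM).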

How the results depend on the processing

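Of the 10 genes, 1 (*Syk*) was called in males without the low-count filter, beside 2597 of 30652 genes called higher and 603 lower. With DESeq2 1 was called, beside 22.7% of all genes. With 1 library left out 0 to 10 were called, the 10 without mouse 104 beside 33.5% of all genes. In A+/Pwt/wt compared with A-/Pwt/wt microglia 2 were called with DESeq2, beside 3.67% of all genes. With pan-microglia scaling 1 was called, beside 115 of 17355 genes called higher and 27 lower. With all groups in the fit 1 was called, beside 185 of 17850 genes higher and 78 lower. With 1 library left out 0 to 1 were called, the 1 without mouse 223 beside 243 of 17258 genes higher and 254 lower. In A+/Pki/ki compared with A-/Pwt/wt microglia 2 were called with DESeq2, beside 607 of 17438 genes called higher and 349 lower. With all groups in the fit 2 were called, beside 395 of 17850 genes higher and 115 lower. With 1 library left out 0 to 2 were called, the 2 without mouse 335 beside 706 of 17287 genes higher and 391 lower. The 2 without mouse 223 stood beside 291 of 17317 genes higher and 69 lower. For the difference between the KI effects, 0 to 6 were called with 1 library left out, the 6 without mouse 335 beside 35.4% of all genes. The cause was not tested.

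With pan-microglia scaling the log2FC changed sign in males for *Tyrobp* (0.0685), *Fcer1g* (0.0473) and *Btk* (0.0004). In A+ females it did so between the PLCγ2 genotypes for *Tyrobp* (-0.0621), *Fcer1g* (-0.0277), *Blnk* (-0.0022), *Lat2* (-0.0511) and *Plcg2* (-0.0505). In cortex it did so for *Trem2* (-0.0011), *Tyrobp* (-0.0144) and *Btk* (-0.0036). Compared with A-/Pwt/wt mice, it did so in A+/Pwt/wt for *Plcg2* (-0.0278) and in A+/Pki/ki for *Lyn* (-0.0851), *Btk* (-0.0285), *Blnk* (-0.16), *Vav1* (-0.15) and *Plcg2* (-0.0784). The difference between the KI effects changed sign for *Tyrobp* (0.13), *Fcer1g* (0.0750) and *Plcg2* (0.0102).

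With 1 library left out, log2FC in cortex ranged from -0.0666 to 0.15 for *Trem2*, -0.0738 to 0.14 for *Tyrobp*, -0.11 to 0.0366 for *Syk*, -0.0659 to 0.14 for *Btk*, -0.0225 to 0.14 for *Blnk*, -0.19 to 0.0461 for *Lat2*, -0.12 to 0.0023 for *Vav1* and -0.0168 to 0.19 for *Card9*. In A+/Pwt/wt compared with A-/Pwt/wt microglia it ranged from -0.13 to 0.0550 for *Lyn*, -0.14 to 0.0698 for *Btk*, -0.23 to 0.0034 for *Blnk*, -0.19 to 0.0095 for *Vav1* and -0.0345 to 0.13 for *Plcg2*. In A+/Pki/ki it ranged from -0.14 to 0.12 for *Syk* and -0.22 to 0.0067 for *Card9*.

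With the pan-microglia genes as reference in place of *Tyrobp*, the direction turned for *Trem2* in cortex (exact permutation test, p = 1), A+/Pwt/wt (p = 0.00606) and A+/Pki/ki microglia compared with A-/Pwt/wt (p = 0.00606). It turned for *Fcer1g* in males (exact permutation test, p = 0.514), between A+ females (p = 0.8), in A+/Pwt/wt (p = 0.0242) and in A+/Pki/ki microglia compared with A-/Pwt/wt (p = 0.0303). With 1 library left out, the exact permutation p ranged from 0.229 to 1 for *Trem2* in cortex and from 0.4 to 0.933 for *Fcer1g* in males. No paired analysis was possible because the groups compared share fewer than 2 mouse numbers. The single A- cortex library and the batches limit what the transgene comparisons can show.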
